A study of Mus musculus with 49 samples.

Results

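Frontal cortex of transgenic mice given tamoxifen was compared with frontal cortex of wild-type (WT) mice, both after 4 months of high fat diet. The members are the 10 libraries whose titles begin with CreTM and the 10 whose titles begin with 4MHFW, 20 of the 49 libraries of the series. CreTM mice carry a conditional human amylin transgene and received tamoxifen, and 4MHFW mice are WT. The labels add that brains of the injected mice were taken 2 months later. The CreVE group is the same transgenic line on the same diet with vehicle in place of tamoxifen (10 libraries), and many of its values are shown beside the main comparison. Levels of single genes are also given in mice labelled AKO, for amylin knockout, after 4 months of diet (10 libraries) and in WT mice after 2 months of diet (9 libraries).

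The labels name no strain, sex, age, litter or batch, no injection for the WT mice, and neither the Cre driver nor the promoter of the transgene. The transgene, the tamoxifen, the injection and the genetic background of the line therefore cannot be told apart in a comparison of tamoxifen with WT. Libraries of a group are not said to come from separate litters or days, so a p-value reflects only the scatter of these libraries. Human amylin RNA was not analysed here.

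Amylin is a small hormone co-secreted with insulin by the beta cells of the pancreas, and it acts through the calcitonin receptor paired with receptor activity-modifying proteins. Human amylin forms amyloid readily, whereas the rodent peptide does not, and transgenic rodents that make the human form are used to study amylin deposits. In an inducible Cre design, tamoxifen is a ligand that lets a fused recombinase enter the nucleus and remove a block in front of a transgene. Tamoxifen is also a modulator of the estrogen receptor in its own right.

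Each library held 29.2 to 68.8 M recovered reads in the tamoxifen group (median 47.1 M, M standing for 1e+06) and 31 to 52.9 M in WT (median 37.8 M). Genes with a read numbered 17089 to 18110 and 17238 to 17769. The vesicular glutamate transporter Slc17a7, which marks cortical excitatory neurons, lay at 16.21 ± 0.38 (SD, n = 10) in the tamoxifen group and 16.10 ± 0.16 in WT, and the deep-layer neuron factor Tbr1 was expressed in every library. All levels are the deposited log2(normalised reads + 1), differences are on that log2 scale with 95% intervals, and adjusted p-values are two-sided from limma with Benjamini-Hochberg adjustment over all genes tested. Levels of different genes are not corrected for length, so they are compared between groups and not between genes.

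Of 15225 genes tested, 1997 passed an adjusted p of 0.05 (13.1%). They split into 946 higher in tamoxifen (6.21%) and 1051 lower (6.9%), so 47.4% of the calls were higher. Upper quartile scaling moved that share to 60.3% of 1934 calls and scaling to library totals to 56.3% of 1937. Most differences were small. The median size among the calls was 0.22, 1236 were under 0.25, and 35 reached 1 or more, 18 of them higher and 17 lower. In 115 genes (0.755%) the groups did not overlap, 41 higher and 74 lower. Without the tamoxifen library numbered 9 the count rose to 3176.

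The vehicle group differed from the same WT libraries in 938 of 15129 genes (6.2%), 392 higher (2.59%) and 546 lower (3.61%). Both comparisons use the same 10 WT libraries, so they are set side by side and no overlap between them is counted. Between tamoxifen and vehicle, 0 of 15270 genes passed with limma (0%) and 0 with limma-voom on the recovered reads, and 503 had an unadjusted p below 0.05 (3.3%). The 95% interval of a difference between tamoxifen and vehicle had a median halfwidth of 0.17, against 0.14 for tamoxifen against WT.

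**Figure D1:**
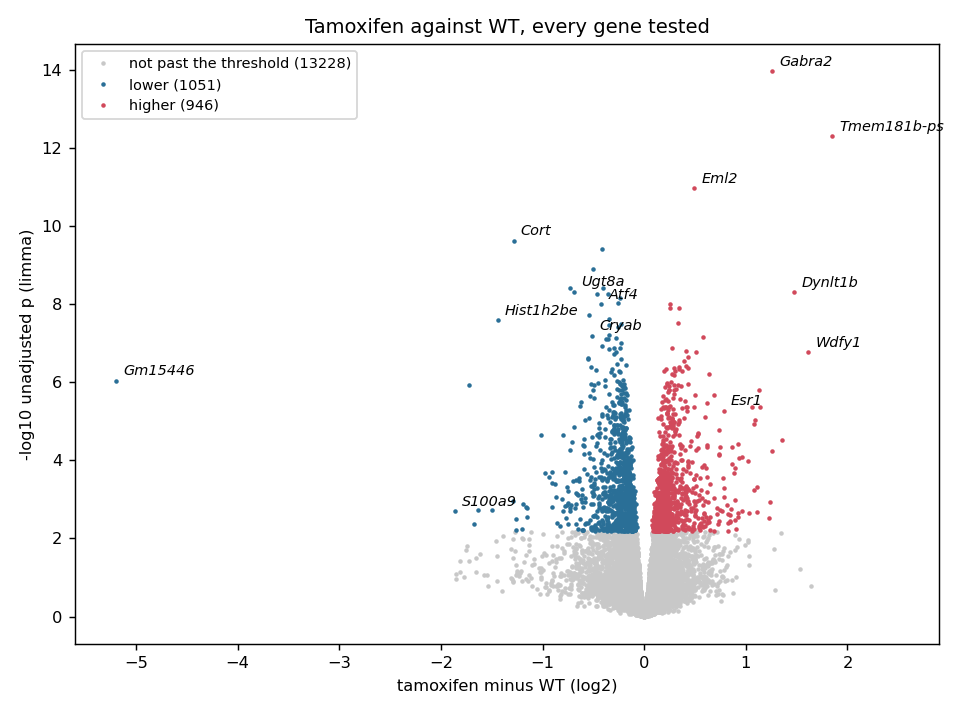
Difference between tamoxifen and WT libraries (log2, x axis) against -log10 of the unadjusted limma p (y axis) for each of the 15225 genes tested. Red points are the 946 genes higher in tamoxifen and blue points the 1051 lower; most lie within 0.5 of 0, with Gabra2 at the top and Gm15446 far to the left.

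Mouse Iapp, which encodes amylin, had 0 reads among 474.7 M in the tamoxifen group and 0 among 409.0 M in WT. A count of 0 allows up to 3 reads over a group, or 0.00632 and 0.00733 reads per M, and covers counting error only. Of 11 listed amylin and calcitonin peptides, receptors and receptor activity-modifying proteins, 7 were tested and 0 passed. The modifying protein Ramp1 lay at 11.28 ± 0.11 in tamoxifen and 11.37 ± 0.10 in WT, a difference of -0.09 (95% interval -0.18 to 0.01, adjusted p = 0.24). The calcitonin receptor-like receptor Calcrl differed by -0.05 (-0.23 to 0.14). The intervals of these 2 genes hold differences of up to 0.23 in size.

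The clearest single-gene difference was Gabra2, the alpha 2 subunit of the GABA-A receptor, an inhibitory chloride channel (chr5:70958392-71095849, RefSeq GRCm38.p6). Its levels ran from 11.50 through a median of 11.95 to 12.10 in tamoxifen and from 10.48 through 10.63 to 10.99 in WT. Every tamoxifen library lay above every WT library. The difference was 1.26 (95% interval 1.12 to 1.41, adjusted p = 1.6e-10), or 2.40-fold higher. Of 13 tested GABA-A receptor subunits, Gabra2 alone passed the test, and 2 were higher and 2 lower with the marker levels of striatum and olfactory bulb as covariates. Vehicle libraries lay at 11.88 ± 0.20, the libraries labelled AKO at 11.87 ± 0.12 and WT after 2 months at 10.58 ± 0.18. Tamoxifen and vehicle differed by 0.05 (-0.12 to 0.21).

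Gabra2 belongs to a list of 10 genes known to differ in sequence or level between C57BL/6 substrains, of which 9 were tested. Of these, 3 were higher, 2 were lower and the other 4 did not pass. Among all genes tested 6.21% were higher and 6.9% lower. The list median was 0.28, beside -0.0034 over all genes tested. No gene of the list was lower with WT libraries 21 to 25 alone. A stricter filter on low values removed the 2 lower genes, so it did not retest them. The vehicle comparison gave 3 higher and 1 lower, where 2.59% of all genes were higher and 3.61% lower. The list was drawn up with earlier results of these data known, so its counts are a description.

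Wdfy1, an adaptor protein of endosomes that takes part in Toll-like receptor signalling, fell into separate levels within the transgenic groups (chr1:79702262-79776143). WT libraries lay between 9.16 and 9.52, with 454 to 761 reads each. In the tamoxifen group, library 21 lay at 9.33, inside the WT range. The tamoxifen libraries 45, 28, 33, 44, 18 and 27 lay between 10.74 and 10.95, and libraries 15, 16 and 9 between 11.53 and 11.77. The same pattern appeared in the vehicle group, with library 16 at 9.26, 6 libraries between 10.69 and 10.84 and libraries 3, 5 and 1 between 11.42 and 11.81. Tamoxifen against WT gave 1.61 (1.18 to 2.05, adjusted p = 6.3e-05) and vehicle against WT 1.55 (adjusted p = 0.00025). The libraries labelled AKO (9.34 ± 0.11) and WT after 2 months (9.41 ± 0.11) lay with WT.

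The predicted gene Gm15446 showed the widest fall and was chosen after its values were seen (chr5:109933563-109941710). Every WT library held 128 to 217 reads. In the tamoxifen group, libraries 21 and 27 lay at 6.72 and 6.74 (82 and 149 reads), below the WT range of 6.99 to 7.78, and the other 8 libraries held 0 to 4 reads. In the vehicle group only library 16 stood out, at 6.56 (76 reads), and the other 9 held 0 to 4 reads. The fitted difference of -5.20 (adjusted p = 0.00019) is set by these libraries with almost no read. The libraries labelled AKO lay between 7.03 and 7.74 and WT after 2 months between 7.09 and 7.70, as in WT after 4 months. Library 21 of the tamoxifen group and library 16 of the vehicle group are the libraries at the WT level of Wdfy1, and both are among the 3 transgenic libraries with 76 or more reads of Gm15446.

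Nnt, a proton-driven transhydrogenase of the mitochondrial inner membrane, had an SD of 0.32 among tamoxifen and 0.10 among WT libraries (chr13:119335527-119409257). WT libraries lay between 9.64 and 9.92, and tamoxifen libraries between 9.55 and 10.46. Libraries 9, 21, 27, 33 and 44 lay between 10.35 and 10.46, and library 16 lay at 9.55, below every WT library. The libraries labelled AKO lay at 10.52 ± 0.04. The difference was 0.40 (0.19 to 0.61, adjusted p = 0.011), and vehicle against WT gave 0.37 (adjusted p = 0.026). The call was lost with either set of 5 WT libraries, numbered 11 to 15 or 21 to 25, alone. Crb1, a retinal polarity gene, differed by -1.30 (adjusted p = 0.016) and Entpd4, a Golgi nucleotidase, by -0.73 (adjusted p = 0.023), both at under 1 read per M. Insulin-degrading enzyme Ide, which cuts amylin among other peptides, differed by 0.28 (0.02 to 0.54, adjusted p = 0.15) and did not pass.

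**Figure D2:**
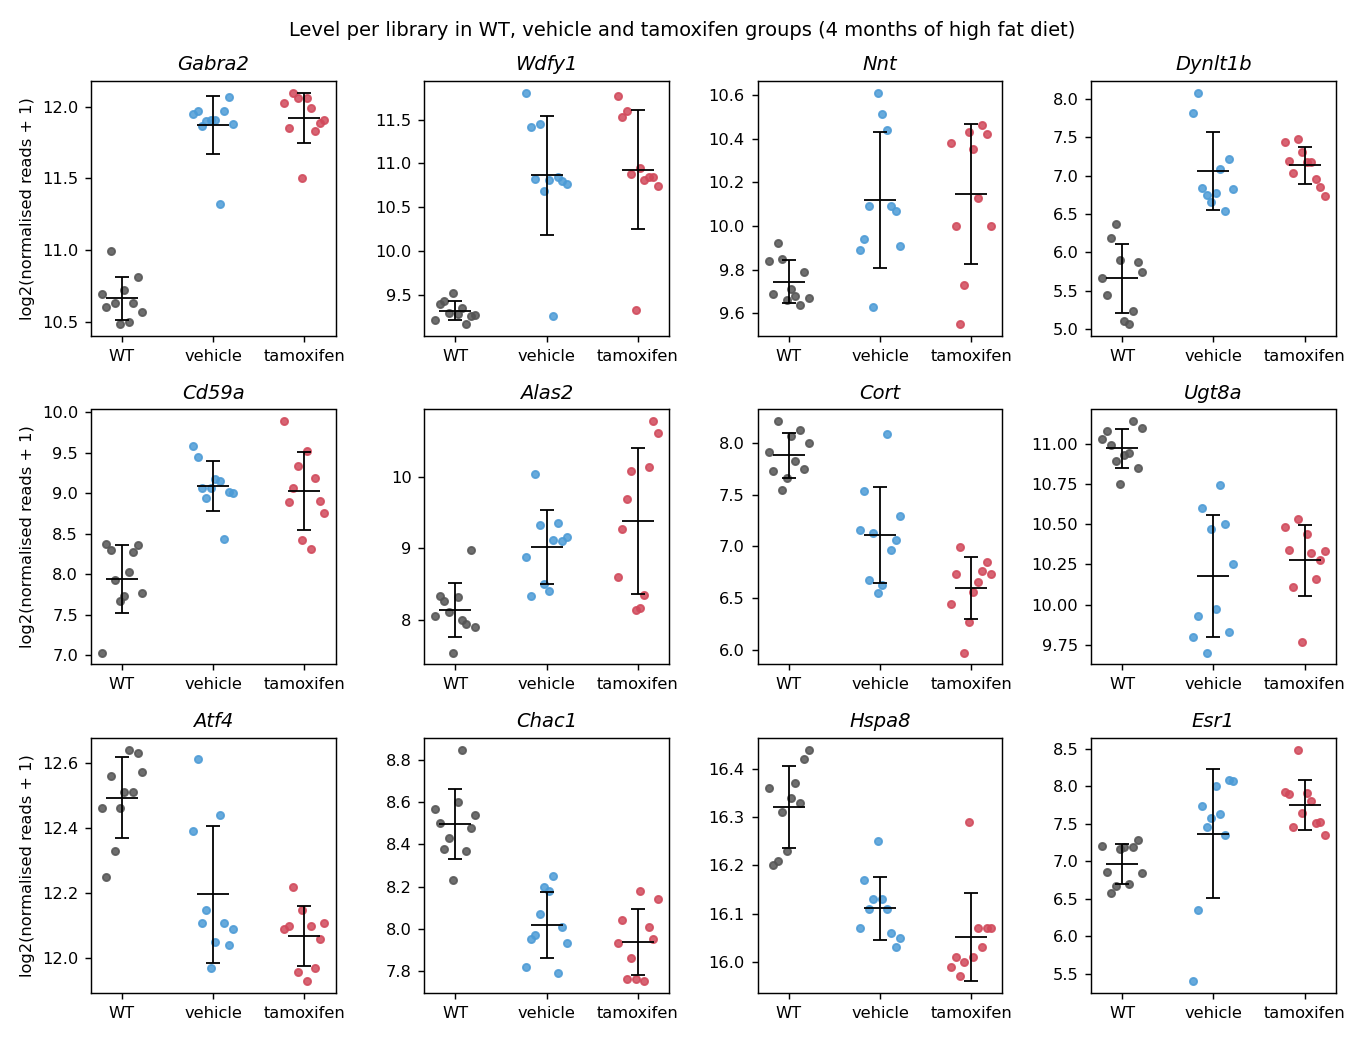
Level of 12 genes in each WT, vehicle and tamoxifen library (y axis, log2(normalised reads + 1); each panel has its own range; bars give the mean and SD, n = 10). Gabra2 separates the groups, Wdfy1 has 1 tamoxifen library at 9.33 and 3 at 11.53 to 11.77, and Cort, Ugt8a, Atf4 and Chac1 are lower in every tamoxifen library than in any WT library.

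Other genes that rose include neighbours on chromosome 17. Dynlt1b, a dynein light chain (chr17:6429530-6440500), lay between 6.73 and 7.48 in tamoxifen and between 5.06 and 6.37 in WT, a difference of 1.47 (1.14 to 1.80, adjusted p = 7e-06). The mouse genome holds near-identical copies of this gene, so its level is uncertain. The adjoining pseudogene Tmem181b-ps (chr17:6439002-6450994), chosen after its values were seen for its small p, lay at 13.01 ± 0.23 and 11.16 ± 0.31, a difference of 1.85 (adjusted p = 3.8e-09). It overlaps Dynlt1b and resembles its parent gene, so reads may have been shared and its level is uncertain too. Vehicle against WT gave 1.40 for Dynlt1b and 1.88 for Tmem181b-ps.

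Cd59a, a membrane inhibitor of the complement attack complex, rose by 1.08 (0.69 to 1.48, adjusted p = 0.00082), with 9 of 10 tamoxifen libraries above the highest WT library. Tnfrsf8, the receptor CD30 of the tumour necrosis factor family, rose by 1.26 (adjusted p = 0.0024). The cytosolic phospholipase Pla2g4e rose by 1.06 (adjusted p = 0.00044) and the exchange factor gene Arhgef33 by 1.13 (adjusted p = 0.00023). In vehicle against WT the differences were 1.14 for Cd59a, 0.94 for Tnfrsf8, 0.91 for Pla2g4e and 0.65 for Arhgef33. Aldh3b2, an aldehyde dehydrogenase, rose by 0.86 and Ccdc116 by 0.94, and both calls held in every alternative run other than the fit with a replicate block. Hif3a, a hypoxia-inducible factor subunit (0.92, adjusted p = 0.025), and Thpo, thrombopoietin (0.92, adjusted p = 0.03), passed less firmly. Both lost the call when striatal and olfactory bulb marker levels were covariates. Hif3a also lost it with limma-voom, with sample quality weights, with WT libraries 21 to 25 alone and without CreTM 9 and CreTM 21 together. Thpo also lost it without WT 12, WT 24, CreTM 28 or CreTM 44, and Thpo and Tnfrsf8 with WT libraries 11 to 15 alone.

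Alas2, the erythroid enzyme that starts haem synthesis, rose by 1.23 (0.56 to 1.91, adjusted p = 0.016). Its tamoxifen levels ran from 8.15 to 10.77 with a median of 9.48, and WT from 7.55 to 8.98 with a median of 8.09. Only 6 of 10 tamoxifen libraries lay above the highest WT library, and the call was lost with either set of 5 WT libraries alone and with the region markers as covariates. S100a9, a neutrophil calcium-binding protein, was lower by 1.86 (adjusted p = 0.023) at under 1 read per M, though not with WT libraries 11 to 15 alone. Of 10 listed erythroid and blood genes, 3 were tested. The part of blood cells in these values was not tested.

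Among the falls, Cort encodes cortistatin, a somatostatin-like peptide of cortical inhibitory neurons (chr4:149125034-149126763). Its levels ran from 5.97 through 6.69 to 6.99 in tamoxifen and from 7.54 through 7.87 to 8.21 in WT, with no overlap. The difference was -1.29 (-1.53 to -1.04, adjusted p = 8.9e-07), or 2.44-fold lower. Vehicle libraries lay between, at 7.11 ± 0.46, and differed from WT by -0.78 (adjusted p = 0.0053). Tamoxifen and vehicle differed by -0.51 (-0.87 to -0.16, unadjusted p = 0.0069 in limma), which did not pass over all genes. The libraries labelled AKO lay at 7.89 ± 0.16 and WT after 2 months at 8.35 ± 0.21. Somatostatin itself, Sst, differed by -0.22 (-0.39 to -0.06, adjusted p = 0.064) and did not pass. Of 15 inhibitory neuron markers 0 passed, and 14 of the differences were negative (median -0.20). Without CreTM 9, 2 of them were lower. With striatal and bulb marker levels as covariates 5 were lower and 2 higher, and the median turned to 0.11. Calb2 and Reln belong to both this list and the bulb list, so that fit adjusts them in part for themselves.

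The replication-dependent histone gene Hist1h2be fell by 1.44 (adjusted p = 1.8e-05) and Hist1h4i by 0.76 (adjusted p = 0.019), the latter not with WT libraries 21 to 25 alone or with the region markers as covariates. Histone genes of this cluster have many near-identical copies and mostly lack poly(A) tails, so their levels in poly(A) libraries are uncertain. Col8a2, a short-chain collagen, fell by 0.91 (adjusted p = 0.0056), and its call held without any single library. Abcc12, a transporter at about 1 read per M, fell by 1.21 (adjusted p = 0.045) and lost the call in 14 of the 20 fits that each left out 1 library.

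Genes chosen after their values were seen for the smallest p-values varied little within a group. Eml2, a microtubule-associated protein, lay at 13.16 ± 0.11 in tamoxifen and 12.67 ± 0.04 in WT, a difference of 0.49 (adjusted p = 5.5e-08). The vehicle group differed from WT by 0.26 for Eml2 (adjusted p = 0.092), and tamoxifen against vehicle 0.24 (0.04 to 0.43, unadjusted limma p = 0.02). The spliceosomal protein gene Snrpc fell by 0.50 and the RNA-binding protein gene Rbm28 by 0.41, each with all 10 tamoxifen libraries below the lowest WT library. Dlx1as, an antisense transcript at the Dlx1 locus, fell by 0.73 (adjusted p = 7e-06), while Dlx1 differed by -0.29 (-0.97 to 0.38). Whether the counting used the strand is not stated in the labels, so reads of this pair may be mixed.

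Myelin genes formed the largest group of falls among the lists by share. Oligodendrocytes wrap axons in myelin, and their marker genes encode structural proteins of the sheath, enzymes that make its lipids and proteins that join its layers. Of 16 markers of myelinating oligodendrocytes, all tested, 14 were lower (6.9% of all genes tested were) and 0 higher, with a median of -0.43 beside -0.0034 over all genes. Aspa (-0.30) and Enpp2 (-0.03) did not pass. In vehicle against WT 15 were lower, with a median of -0.63 (3.61% of all genes were lower there). Tamoxifen minus vehicle was positive in all 16, with a median of 0.19, and none passed. In bulk tissue, fewer cells of a type and less RNA per cell cannot be told apart.

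Ugt8a makes galactosylceramide, a main lipid of myelin (chr3:125865272-125938682). It ran from 9.77 through 10.33 to 10.53 in tamoxifen and from 10.75 through 10.97 to 11.14 in WT, so the groups did not overlap. The difference was -0.70 (-0.85 to -0.54, adjusted p = 7e-06). Fa2h, which adds a hydroxyl group to the fatty acids of these lipids, fell by 0.42 (adjusted p = 0.0054). Vehicle libraries lay at 10.18 ± 0.38 for Ugt8a, a difference from WT of -0.79.

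Of the structural proteins of the sheath, Mbp, which holds the inner faces of the membrane together, lay at 15.57 ± 0.30 in tamoxifen and 16.01 ± 0.16 in WT, a difference of -0.44 (adjusted p = 0.0068). Mag and Mog, which sit on the inner and outer surface of the sheath, fell by 0.46 and 0.45. In Mbp, Mag, Mog and Mobp alike, 8 of 10 tamoxifen libraries lay below the lowest WT library. The gap-junction gene Gjb1 fell by 0.60 and the iron carrier Trf by 0.54 (adjusted p = 0.00065). Of 12 precursor and lineage markers 4 were lower, beside 6.9% of all genes tested. Among them were the transcription factor Olig1 (-0.33) and Bcas1 (-0.59), a marker of cells that begin to make myelin. The count of 4 was 2 without CreTM 15 and 0 with WT libraries 11 to 15 alone. With striatal and olfactory bulb marker levels as covariates 2 were lower and 1 higher, and the list median went from -0.11 to -0.02.

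The mean level of the 16 myelin markers lay between 11.22 and 12.16 in tamoxifen and between 12.14 and 12.37 in WT. It was below the lowest WT library in 9 of 10 tamoxifen libraries and in 9 of 10 vehicle libraries. Library 21 was the lowest of the tamoxifen group. The count of 14 held without each library in turn, and the median then ran from -0.49 to -0.37. With WT libraries 11 to 15 alone it was 7 and with WT libraries 21 to 25 alone 11. Over all genes tested 352 of 15522 and 639 of 15683 were lower in these fits.

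**Figure D3:**
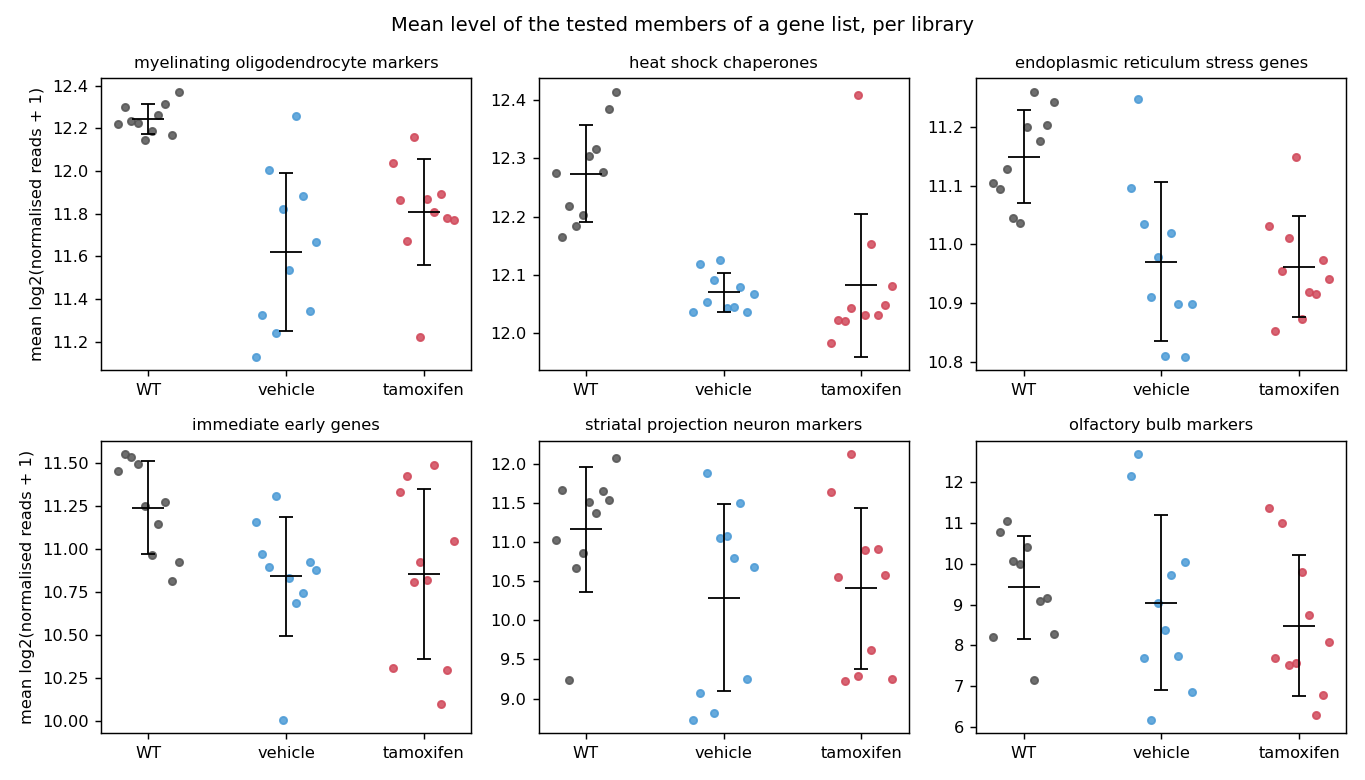
Mean level of the tested members of 6 gene lists in each WT, vehicle and tamoxifen library (y axis, mean log2(normalised reads + 1); each panel has its own range; bars give the mean and SD, n = 10). Myelin markers lie below the lowest WT library in 9 of 10 tamoxifen libraries, whereas the levels of striatal (9.23 to 12.13 in tamoxifen) and olfactory bulb markers (6.30 to 11.35) overlap with WT.

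Dissection can bring neighbouring regions into a cortex sample, so markers of those regions were measured. Of 14 markers of striatal projection neurons 0 passed, all 14 differences were negative and their median was -0.78. With sample quality weights 9 were lower (median -1.03), and without WT 13, the WT library with the lowest striatal level, 3 were (median -0.995). Over all genes tested 1978 of 15225 and 978 of 15288 were lower in these fits. The mean level of the 14 ran from 9.23 to 12.13 in tamoxifen and from 9.24 to 12.09 in WT. Of 11 tested olfactory bulb markers 0 passed and all 11 were negative (median -0.91). Their mean level ran from 6.30 to 11.35 in tamoxifen and from 7.16 to 11.05 in WT. With WT libraries 11 to 15 alone the striatal median was -0.36 and the bulb median -1.50. With WT libraries 21 to 25 alone the striatal median was -1.24 and the bulb median -0.19. The enkephalin gene Penk differed by -0.99 (-1.82 to -0.15, adjusted p = 0.11) and the dopamine receptor gene Drd1 by -0.65 (-1.58 to 0.28). With both marker levels as covariates, 13 myelin markers were lower with a median of -0.30. In all, 2514 genes passed in that fit, and 1257 of them were among the 1997 calls of the main fit. Markers of choroid plexus and ependyma gave 0 of 12 tested (median -0.30), leptomeningeal fibroblasts 0 of 12 (median -0.22), and thalamus and hypothalamus 0 of 8 (median -0.03). Without WT 13, 1 choroid plexus or ependymal and 1 thalamic or hypothalamic marker was higher. Beyond these values, the part of dissection in the results was not tested.

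The endoplasmic reticulum (ER) folds secreted proteins, and cells answer unfolded protein there by raising chaperones and the transcription factor ATF4, which turns on amino acid and stress genes. Of 24 genes of this response, 7 were lower, 0 higher and 17 did not pass, with a median of -0.11 (6.9% of all genes tested were lower). The vehicle comparison gave 6 lower and 0 higher. The counts fell to 2 with WT libraries 11 to 15 alone. Known for this response are 2 short motifs. The ER stress element of chaperone genes (ERSE) is CCAAT and CCACG with 9 bases of any kind between them. The ATF4 composite element (CARE) is TGATGNAA. Promoter stretches are shown for the members that passed and held a match. Pdia3 and Atf4 also passed but held neither motif. Both strands of the 250 bases before each start were searched, and capitals mark the match. The sequences are from RefSeq (GRCm38.p6), 5′ to 3′ on the strand of the gene, and Hspa5, which did not pass, is shown for comparison.
Hsp90b1, chr10:86705608-86705686, minus strand: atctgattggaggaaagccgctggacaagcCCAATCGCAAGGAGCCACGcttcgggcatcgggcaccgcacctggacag
Hsp90b1, chr10:86705503-86705581, minus strand: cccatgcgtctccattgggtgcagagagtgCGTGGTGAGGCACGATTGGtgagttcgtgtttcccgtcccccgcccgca
Calr, chr8:84847045-84847123, minus strand: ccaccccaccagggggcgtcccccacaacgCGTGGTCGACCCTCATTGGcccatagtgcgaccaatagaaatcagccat
Canx, chr11:50325770-50325848, minus strand: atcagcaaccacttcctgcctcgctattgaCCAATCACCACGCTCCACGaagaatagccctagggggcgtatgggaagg
Hspa5, chr2:34771995-34772073, plus strand: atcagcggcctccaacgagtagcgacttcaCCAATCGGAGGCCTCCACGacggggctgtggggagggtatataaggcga
Chac1, chr2:119351019-119351086, plus strand: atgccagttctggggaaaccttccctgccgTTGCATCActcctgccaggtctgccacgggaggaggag
Asns, chr6:7693210-7693262, minus strand: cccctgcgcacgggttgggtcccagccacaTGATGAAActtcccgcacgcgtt

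ERSE was found in 7 of the 21 listed genes with a promoter in the table, 3 of them among the 7 that were lower. Of all 27025 genes with a promoter, 0.13% held it. CARE was found in 4 of 21, 2 of them among the 7 that were lower, and in 3.91% of all genes with a promoter. A match describes the letters and is not evidence of a bound factor. The list was made of known targets, so a raised share of these motifs belongs to the choice of genes.

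Atf4 lay between 11.93 and 12.22 (median 12.09) in tamoxifen and between 12.25 and 12.64 (median 12.51) in WT. The groups did not overlap, and the difference was -0.42 (-0.52 to -0.32, adjusted p = 9.4e-06). Its target Chac1, which breaks down glutathione and has CARE in the stretch above, ran from 7.75 to 8.18 in tamoxifen and from 8.23 to 8.85 in WT, a difference of -0.56 (adjusted p = 8.2e-05). Asns, asparagine synthetase, the other CARE gene that passed, differed by -0.17 (adjusted p = 0.048), with 2 of 10 tamoxifen libraries below the lowest WT library. In the vehicle group the differences from WT were -0.30 for Atf4, -0.48 for Chac1 and -0.25 for Asns (adjusted p = 0.066). Ddit3, another target of this branch, differed by 0.03 (-0.07 to 0.14) and did not pass.

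Of the chaperones with ERSE, Calr lay at 13.86 ± 0.16 in tamoxifen and 14.22 ± 0.14 in WT, a difference of -0.36 (adjusted p = 0.00065). Hsp90b1, the ER member of the HSP90 family, differed by -0.31 (adjusted p = 0.00064; not passing with WT libraries 11 to 15 alone) and the lectin chaperone Canx by -0.11 (adjusted p = 0.034). Hspa5, the main ER chaperone, differed by -0.15 (-0.34 to 0.04, adjusted p = 0.32). Pdia3, a disulphide isomerase that works with Calr and Canx, fell by 0.23 (adjusted p = 0.0058). Xbp1, a factor of another branch of the response, differed by -0.003 (-0.147 to 0.141). Tamoxifen and vehicle differed by -0.10 for Calr, -0.02 for Hsp90b1 and 0.01 for Canx, each with an interval that spans 0.

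Of 17 heat shock genes, which encode mostly cytosolic chaperones and co-chaperones and the mitochondrial pair Hspd1 and Hspe1, 8 were lower, 0 higher and 9 did not pass. Their median was -0.17, and 6.9% of all genes tested were lower. Vehicle against WT gave 7 lower and a median of -0.21, where 3.61% of all genes were lower. Cryab, a small heat shock protein that oligodendrocytes and astrocytes express, lay between 10.96 and 11.30 in tamoxifen and between 11.39 and 11.98 in WT. The groups did not overlap (-0.51, adjusted p = 3.6e-05). Hspa8, the constitutive HSP70, differed by -0.27 (-0.36 to -0.18, adjusted p = 0.00023), and 9 of 10 tamoxifen libraries lay below the lowest WT library. The exception was library 21, at 16.29.

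The HSP90 co-chaperones Chordc1 (-0.38) and Stip1 (-0.26) and the nucleotide exchange factor Hsph1 (-0.29) were lower, while Hsp90aa1 (-0.02, adjusted p = 0.77), Hspa1a (-0.16) and Bag3 (-0.02) did not pass. Their list level lay below the lowest WT library in 9 of 10 tamoxifen and 10 of 10 vehicle libraries. With WT libraries 11 to 15 alone 3 members were lower, and with striatal and bulb marker levels as covariates 12 were. Over all genes tested 352 of 15522 and 1452 of 15225 were lower in these fits. The heat shock element (HSE) was searched as GAA, TTC and GAA with 2 bases between each. It was found in 2 of 13 listed genes with a promoter and in 139 of all 27025 genes with a promoter. Hspe1, which passed (-0.24, adjusted p = 0.011), and Hspd1, which did not (-0.09, adjusted p = 0.097), share 1 divergent promoter that holds the element on both strands.
Hspe1, chr1:55088034-55088106, plus strand: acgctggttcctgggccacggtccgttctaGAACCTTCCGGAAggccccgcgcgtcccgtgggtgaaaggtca

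**Figure D4:**
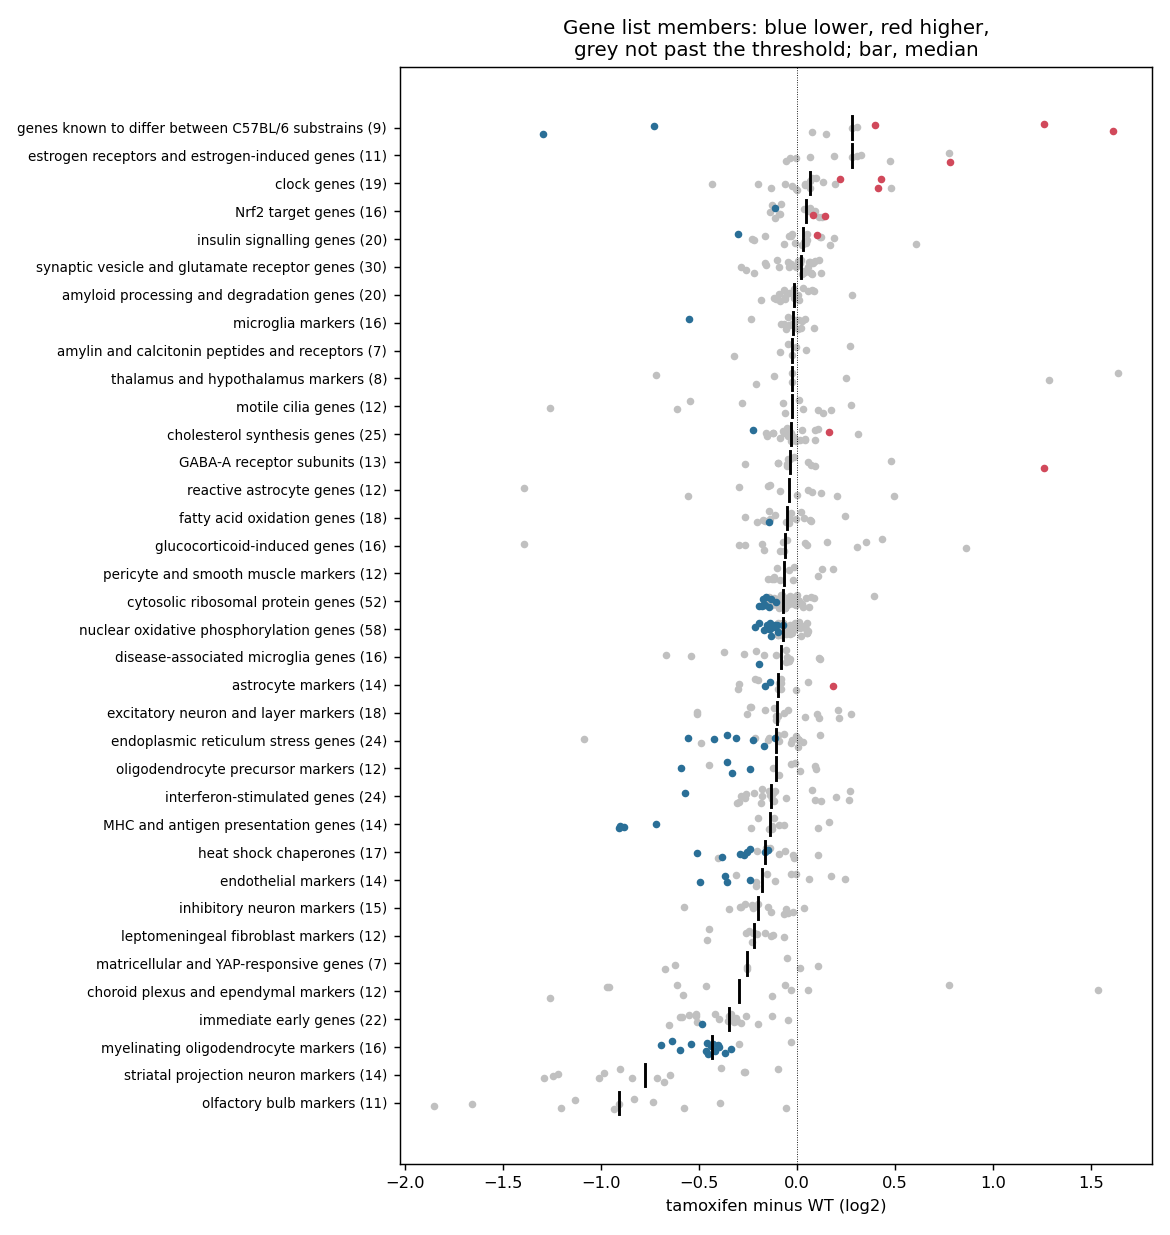
Difference between tamoxifen and WT (log2, x axis) for the tested members of each list with at least 5 tested members (y axis, number tested in parentheses). Blue and red points passed as lower or higher, grey points did not, and a bar marks the median; 14 of 16 myelin markers are blue around -0.43, and the striatal and bulb markers at the bottom are all grey.

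Class II antigen presentation genes were lower at low levels. H2-Aa, H2-Ab1 and H2-Eb1, the chains that present peptide to helper T cells, differed by -0.88, -0.90 and -0.91 (adjusted p = 0.0086, 0.02 and 0.0084). Their invariant chain Cd74 differed by -0.72 (adjusted p = 0.018). Each of the 3 H2 genes had 6 of 10 tamoxifen libraries below the lowest WT library. The other 10 tested members of the antigen presentation list did not pass (4 of 14 lower, against 6.9% of all genes), the class I genes H2-K1 (-0.07) and H2-D1 (0.16) among them. With the striatal and bulb marker levels as covariates 1 member was lower and 1 higher, and 1 or 2 were lower with either set of 5 WT libraries alone. Vehicle against WT called H2-Eb1 alone of the list (-0.79, adjusted p = 0.038), and tamoxifen minus vehicle lay between -0.12 and 0.06 for these 4 genes.

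Of 16 tested markers of microglia, which can carry class II molecules, Fcrls alone passed, lower by 0.55 (-0.71 to -0.40, adjusted p = 8.2e-05), with 9 of 10 tamoxifen libraries below the lowest WT library. The purinergic receptor P2ry12 (0.03) and the surface protein Tmem119 (0.02) did not pass, and the list median was -0.02. Of 16 disease-associated microglia genes 1 was lower, and of 24 interferon-stimulated genes 1 was lower, where 6.9% of all genes were. Leaving out 1 library moved the first count from 0 (for example without WT 12) to 5 (without CreTM 9) and the second from 0 (for example without WT 11) to 2 (without CreTM 9 or CreTM 16). Cd52, a leukocyte surface antigen at about 1 read per M, fell by 0.77 (adjusted p = 0.03) and lost the call without CreTM 28, WT 22, WT 23, WT 24 or WT 25. Vehicle against WT gave 2 microglia markers, 3 disease-associated genes and 1 interferon-stimulated gene lower, where 3.61% of all genes were.

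Endothelial genes for the angiopoietin receptors were lower. Tek ran from 8.74 to 9.49 in tamoxifen and from 9.20 to 9.78 in WT, a difference of -0.50 (adjusted p = 0.00032). Tie1, its partner receptor, differed by -0.36 (adjusted p = 0.0044), and the junction cadherin Cdh5 by -0.24 (adjusted p = 0.016). Tie1 lost the call with WT libraries 11 to 15 alone and Cdh5 with WT libraries 21 to 25 alone. Of 14 endothelial markers 4 were lower, Ly6c1 (-0.37) being the other, against 6.9% of all genes tested, and 10 did not pass, among them Cldn5 (-0.21) and Pecam1 (-0.15). Vehicle against WT gave 3 lower, where 3.61% of all genes were. Leaving out 1 library moved the count of 4 in tamoxifen against WT to between 3 and 6. Of 12 pericyte and smooth muscle markers 0 passed. Astrocyte markers gave 1 higher, the receptor Fgfr3 (0.18), and 2 lower of 14, among them Glul (-0.17). Fgfr3 lost the call in 9 of the 20 fits that each left out 1 library, and 5 astrocyte markers were lower without CreTM 9. Reactive astrocyte genes gave 0 of 12, and at most 1 in either direction when 1 library was left out.

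Some genes for the respiratory chain and ribosomes were lower by small amounts. Of 58 nuclear genes of oxidative phosphorylation, 14 were lower and 0 higher, with a median of -0.07, beside 6.9% lower among all genes tested. Vehicle against WT gave 2 lower and 1 higher, where 3.61% of all genes were lower. Atp5b, the catalytic beta subunit of ATP synthase, lay at 15.85 ± 0.05 in tamoxifen and 16.02 ± 0.03 in WT, a difference of -0.17 (adjusted p = 0.0006). Uqcrb of complex III fell by 0.22 and Ndufa5 of complex I by 0.16. For Ndufa5, tamoxifen and vehicle differed by -0.12 (-0.20 to -0.04, unadjusted limma p = 0.0064). The count of 14 was 9 with voom, 8 under upper quartile scaling, 2 with WT libraries 11 to 15 alone, 8 with striatal and bulb marker levels as covariates, 32 with sample quality weights and 29 without tamoxifen library 9. It was 9 without CreTM 15, CreTM 28 or WT 23. Over all genes tested, 871 of 15225 were lower with voom and 768 under upper quartile scaling. With WT libraries 11 to 15 alone 352 of 15522 were, and with the covariates 1452 of 15225. With sample quality weights 1978 of 15225 were lower, and without tamoxifen library 9 1547 of 15242. Of 52 cytosolic ribosomal protein genes 9 were lower (median -0.07), beside 6.9% of all genes, for example Rpl7a (-0.18) and Rplp0 (-0.17). That count was 3 with voom, 3 under upper quartile scaling, 25 with sample quality weights, 20 without tamoxifen library 9 and 4 to 10 without any other single library. With the region markers as covariates 2 were lower and 1 higher, and the median turned to 0.01. With WT libraries 11 to 15 alone 1 was lower, and with WT libraries 21 to 25 alone 0 were lower and 1 was higher.

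Calls varied with transcript length and base composition. The 14704 genes with a transcript model were split into 5 equal bins. In the bin of shortest transcripts 4.35% were higher and 9.08% lower, and in the bin of longest transcripts 8.4% and 4.32%. By GC content the shares went from 4.18% higher and 9.79% lower in the lowest bin to 8.02% and 4.35% in the highest. The median difference moved from -0.03 to 0.02 between the ends of both scales. After the length and GC trend of each library was removed, 1817 genes passed, and the oxidative phosphorylation count stayed at 14 with a median of -0.04.

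**Figure D5:**
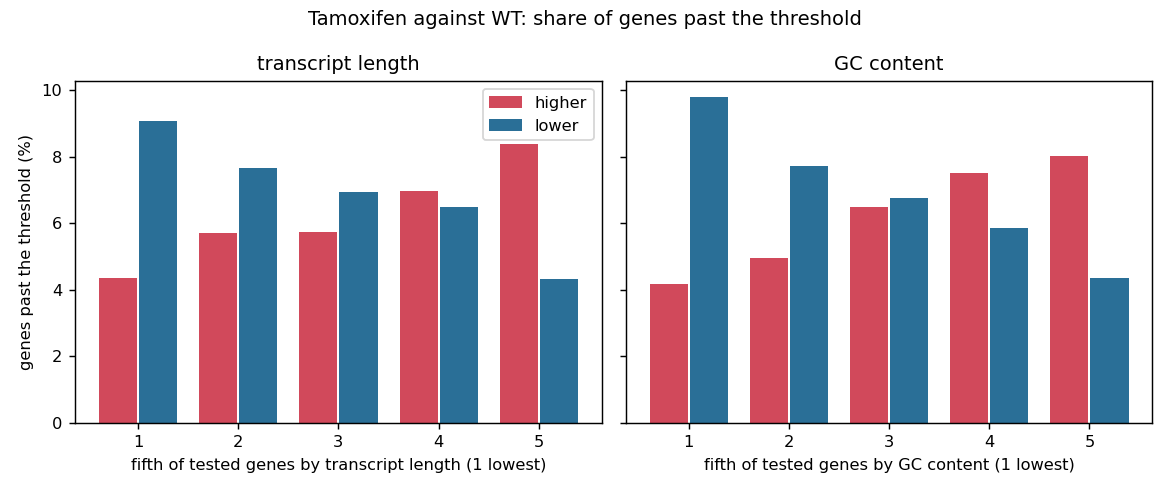
Share of genes past the threshold (y axis, %) that were higher (red) or lower (blue) in tamoxifen than in WT, in 5 equal bins of the tested genes by transcript length (left) and GC content (right). Higher calls go from 4.35% to 8.4% with length and lower calls from 9.08% to 4.32%.

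The clock list held 3 higher genes of 19 and 0 lower, with a median of 0.06, where 6.21% of all genes tested were higher. With striatal and bulb marker levels as covariates 3 were higher and 3 lower, and the median turned to -0.09. It was -0.005 without CreTM 21, and 2 genes were lower without CreTM 16. Nr1d1, a repressor whose level swings over the day, lay at 12.16 ± 0.29 in tamoxifen and 11.73 ± 0.11 in WT, a difference of 0.43 (adjusted p = 0.0037). The output factor Dbp differed by 0.41 (adjusted p = 0.014) and Per3 by 0.22 (adjusted p = 0.035), while Arntl differed by -0.13 and did not pass. With WT libraries 21 to 25 alone none of the 3 passed, Per3 lost the call in 12 of the 20 fits that each left out 1 library, and without CreTM 9 the count was 6. Vehicle against WT gave 1 higher, where 2.59% of all genes were, and a median of 0.06. The time of day of collection is not in the labels.

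Immediate early genes, which neurons raise with activity, were all negative: 22 of 22, with a median of -0.35. Of all genes tested 50.9% were negative and 6.9% passed as lower. The list median was -0.70 with WT libraries 11 to 15 alone and -0.19 with WT libraries 21 to 25 alone. Bdnf, a growth factor of active neurons, alone passed (-0.48, -0.72 to -0.25, adjusted p = 0.0073), though not with WT libraries 11 to 15 alone. The count was 3 without CreTM 16 and 2 without CreTM 28. Fos ran from 8.30 to 11.49 in tamoxifen and from 10.20 to 11.80 in WT, and its difference of -0.60 had an interval of -1.42 to 0.22. Their mean level lay below the lowest WT library in 4 of 10 tamoxifen and 3 of 10 vehicle libraries. Vehicle against WT gave 1 lower, where 3.61% of all genes were, and a median of -0.44. In tamoxifen against WT with the striatal and bulb marker levels as covariates 7 were lower, where 1452 of 15225 genes were.

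Tamoxifen binds estrogen receptors, and Esr1 encodes estrogen receptor alpha (chr10:4611989-5005633). It ran from 7.35 to 8.49 in tamoxifen (median 7.73) and from 6.59 to 7.29 in WT (median 7.01), with no overlap, a difference of 0.78 (0.51 to 1.05, adjusted p = 0.0005). Vehicle libraries spread from 5.40 to 8.09 and differed from WT by 0.40 (adjusted p = 0.43). Tamoxifen and vehicle differed by 0.38 (-0.19 to 0.95, unadjusted limma p = 0.18), so a difference between the transgenic groups was not shown. Of 11 tested estrogen receptor and target genes Esr1 alone passed, and 2 passed without CreTM 9, CreTM 33 or WT 15. Among all genes tested 6.21% were higher. In this list 8 differences were positive and 3 negative, with a median of 0.28, and vehicle against WT gave a median of 0.02. The mean level of the list lay above the highest WT library in 6 of 10 tamoxifen and 1 of 10 vehicle libraries. Tamoxifen minus vehicle had a median of 0.08. The progesterone receptor gene Pgr, a classical target, differed by 0.19 (-0.09 to 0.47).

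Insulin signalling, which a high fat diet is known to impair, gave 1 higher and 1 lower gene of 20, near the 13.1% called among all genes tested. The median of the list was 0.03, and the 2 genes are described as single genes. Akt2, the kinase of insulin-stimulated glucose uptake, differed by -0.30 (-0.43 to -0.17, adjusted p = 0.0032), and Akt1 by 0.10 (0.05 to 0.15, adjusted p = 0.012). The vehicle group differed from WT by -0.23 for Akt2 (adjusted p = 0.05, not passing) and 0.08 for Akt1 (adjusted p = 0.1). With WT libraries 11 to 15 alone neither kinase passed, and Akt1 did not with WT libraries 21 to 25 alone or after the length and GC trend was removed. Without CreTM 9, 3 genes of the list were higher. Cholesterol synthesis gave 1 higher and 1 lower of 25, and Nrf2 targets 2 higher and 1 lower of 16. Amyloid processing genes gave 0 of 20, synaptic vesicle and glutamate receptor genes 0 of 30 and excitatory neuron markers 0 of 18. CreTM 9 was the lowest tamoxifen library for the levels of the last 2 lists. Without it 4 excitatory markers were higher and 1 lower, 2 synaptic genes were higher, and 2 amyloid processing genes were higher and 1 lower. Without some other single libraries, CreTM 33 and WT 13 among them, 1 synaptic gene was lower. The count of lower Nrf2 targets was 4 without CreTM 9, and that of lower cholesterol genes 3 without CreTM 18. Snap25, a synaptic vesicle fusion protein, differed by -0.003 (-0.193 to 0.187).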

How the data were processed

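The authors deposited 1 table of 24495 genes in log2 values. The aligner, counter, build and normalization are not given in the labels or header. Raising 2 to a value and subtracting 1 gave whole multiples of 1 step per library (99.92% to 100.0% of values up to 200 reads, within 0.1), so a deposited log2 value is that of reads over a size factor plus a pseudocount of 1. A single value column matched no sample (1 unused column), and 7 genes that were not whole reads were left out. The gene symbols turned into dates (27) were restored from gene IDs. The kit was Illumina TruSeq Stranded mRNA, per the labels' protocols.

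Genes were kept if 10 libraries reached the rate of 10 reads in a library of median depth and the total reached 15 reads, and were tested with limma 3.58.1 (R 4.3.3; trend and robust variance), because the planned count test does not suit log2 values. Each comparison was fitted on its 20 libraries. Intervals are 95%. The test was also run on simulated data in which each gene was drawn independently. Such data cannot show how the test behaves when many genes of a library shift together. Positions and promoters are from RefSeq GRCm38.p6 (24372 genes matched by ID), and transcript length and GC from the longest GENCODE M21 transcript.

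Named genes are Iapp, the 12 largest rises and 12 largest falls with at least 1 read per M (1e+06) and no predicted symbol, up to 3 members per list with the smallest p, and up to 6 with the largest SD. Not every gene so named is reported here. A last clause, runs of at least 3 calls within 2 Mb, named 1742 of 1995 calls with a position and is given only as that count. The members, the lists and this rule were chosen with earlier results of these data known. No library pair in a group was closer than sampling noise allows (lowest chi-square per gene 6.55). Alternatives are in the closing section.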

Additional observations from a re-analysis of the deposited data

Results flagged for a closer look

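In groups of 10 libraries a value was marked when its gap to the nearest library, as a share of the group's range, exceeded Dixon's 95% critical value. Of 226 groups of values tested 21 were marked, and chance marks about 1 in 20.

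CreTM library 21 was marked 7 times. It was the lowest tamoxifen library for Wdfy1 (9.33, next 10.74), Gabra2 (11.5), Enpp6 (7.23) and the myelin marker level (11.22). It was the highest for Hspa8 (16.29, next 16.07), Fmo2 (8.68) and the heat shock level (12.41). CreTM library 9 was the lowest for Tnfrsf8 (5.08), Thpo (5.66), Akt2 (11.76), the excitatory neuron marker level (10.6, next 11.2) and the synaptic gene level (13.24).

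Single marks fell on CreTM 18 for Esr1 (8.49, the highest), CreTM 33 for the amylin and calcitonin gene level (8.22, the lowest) and CreTM 16 for the insulin signalling level (11.35, the highest). In WT, the lowest library stood apart for Cd59a (7.03, library 11), Bdnf (10.21, library 12), Enpp6 (7.75, library 24) and Tek (9.2, library 15). WT library 13 was the lowest for the striatal marker level (9.24, next 10.68) and the cholesterol synthesis level (10.73).

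Outside the comparison, the libraries labelled AKO held 596 reads of mouse Iapp, spread over 10 of 10 libraries, where tamoxifen and WT libraries held 0. Whether these reads go against the knockout label was not tested. That group serves here only for the levels of single genes.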

How the results depend on the processing

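In tamoxifen against WT the count of 1997 moved beyond 1.5 times under 5 settings. It was 3930 with sample quality weights, 676 with WT libraries 11 to 15 alone and 1240 with WT libraries 21 to 25 alone, and 3176 without CreTM 9. A fit with a replicate block on the title numbers 15 and 21, the only numbers both groups share, gave 148. Those numbers were not shown to pair the libraries (correlation of deviations 0.02 and -0.07), and the block leaves few residual degrees of freedom. Leaving out 1 library gave 1471 (without CreTM 15) to 3176. The other 11 settings, 3 of them chosen after seeing the data, gave 1583 to 2933. That upper count came from leaving out CreTM 9 and CreTM 21 together. The share of all genes called moves with the setting, so the count of a list under a setting is to be read beside that share. A similar count need not hold the same genes. With the region markers as covariates 2514 genes passed, and 1257 of them were among the 1997. The shared calls were 588 with WT libraries 11 to 15 alone and 982 with WT libraries 21 to 25 alone. Vehicle against WT gave 808 to 956, and tamoxifen against vehicle 0 in each of its 5 settings. No direction reversed for the 75 genes followed. Apart from the block, 908 of their results stayed on the same side of the threshold and 136 did not. Leaving out 1 library at a time moved 120 across it and kept 1380. The block aside, calls were lost most often with WT libraries 11 to 15 alone (37 genes) and with WT libraries 21 to 25 alone (27). The region markers as covariates came next (21). The fits on part of the WT libraries hold fewer libraries than the main fit, so a difference of the same size passes less readily. A call lost there therefore cannot show that the difference depends on which WT libraries were used. Beyond this, the cause of the lost calls was not tested. The median halfwidth of a 95% interval over the genes tested was 0.14, and it was smaller in genes with little scatter, where differences such as the 0.10 of Akt1 passed.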
